A study of Homo sapiens with 8 samples.

Results

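The genes described here belong to the death receptor pathway and were chosen by name: FAS, TNFRSF10A, TNFRSF10B, TNFRSF10D, TNFSF10, FADD, CASP8, CASP10, CFLAR and RIPK1. A gene was read from the probe sets that the platform annotation ties to it alone, and from the one with the highest mean where there were several. A probe set is a group of short probes whose brightness is summarised as 1 value per array. Of the 10 genes, 9 were measured, out of 18417 genes in all, and RIPK1 was not analysed here. All 9 were among the 16910 genes that passed the filter on dim probe sets, so none was lost to it. That filter was the median, 5.73 on the log2 scale, of 360 probe sets of olfactory receptor genes, which serve in the nose. The 95th percentile of the same probe sets, 7.499, is used below as the upper edge of background, since no detection call was at hand.

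Sorted cells of 4 established human lines, COLO741, SW620, HT29 and HCT116, were measured on 8 Affymetrix Human Gene 1.0 ST arrays. Each line gave 1 array of cells labelled ABCB5-positive and 1 of cells labelled ABCB5-negative, parted by fluorescence with an antibody against ABCB5, a transporter of the ATP-binding cassette family. Culture was in RPMI medium with serum and antibiotics for all of them. No drug, transgene or other agent is named, and 1 array stands for each sorted population of a line. The labels call COLO741 and HCT116 colon carcinoma, HT29 colon adenocarcinoma and SW620 a lymph node metastasis of colon carcinoma. The design text of the series has SW480 where the sample labels have SW620, and the sample labels were followed. The series title concerns ABCB5 and the resistance of tumour cells to apoptosis, and death receptors are 1 of the routes into apoptosis.

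The labels and the arrays were at odds in several places. In COLO741 the ABCB5 transcript measured 8.14 on the array labelled positive and 9.42 on the array labelled negative, opposite to the labels, and on the other 6 arrays it lay between 5.24 and 5.69, at background. The 9 measured melanocyte markers averaged 12.80 on the COLO741 array labelled positive and 12.93 on the one labelled negative, against 6.50 to 7.01 on the arrays of the other lines. The 13 markers of colon epithelium averaged 7.61 and 7.74 in COLO741, with 6 of them above background on either array, against 9.78 to 11.80 elsewhere, with 8 to 13 above. The 16 phagocyte and other leukocyte markers averaged 7.95 on the SW620 array labelled positive, with 9 above background, and 7.16 to 7.27 on the 7 other arrays. The 2 arrays of a line are not stated to come from separate cultures, so p-values measure only the spread between these arrays, part of which may be technical. In such bulk samples fewer cells of a type and less RNA per cell cannot be told apart.

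Death receptors are cell surface proteins of the tumour necrosis factor receptor family that carry a death domain in their cytoplasmic tail. Binding of the ligand gathers the adaptor FADD, which in turn gathers the initiator caspases 8 and 10, and the caspases activate one another and then the executioner caspases. The same complex can hold cFLIP, the product of CFLAR, a relative of caspase-8 without protease activity that limits its activation, and decoy receptors bind the ligand TRAIL without passing on the signal. In colon epithelium FAS is normally present, and cells of colon tumours differ widely in their response to TRAIL.

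Promoters of TNFSF10, FAS and CASP8 are shown, because these 3 had the widest range of levels between lines among the members found in the promoter table. They come from RefSeq on build GRCh38.p14 and run from 250 bases before to 50 bases after the start of the transcript. Of the 9 measured genes, 5 matched the table, with 12 listed starts, and where a gene had several starts the first listed is printed. Capitals mark matches on either strand to any of 5 motifs. They were the GC box GGGCGG; the STAT palindrome TTCNNNGAA; the core of the interferon-stimulated response element, in which 2 copies of GAAA are parted by 2 bases; the CCAAT box; and the TATA box TATAAA. No 2 matches in the printed promoters overlapped.
TNFSF10, chr3:172523381-172523680, minus strand: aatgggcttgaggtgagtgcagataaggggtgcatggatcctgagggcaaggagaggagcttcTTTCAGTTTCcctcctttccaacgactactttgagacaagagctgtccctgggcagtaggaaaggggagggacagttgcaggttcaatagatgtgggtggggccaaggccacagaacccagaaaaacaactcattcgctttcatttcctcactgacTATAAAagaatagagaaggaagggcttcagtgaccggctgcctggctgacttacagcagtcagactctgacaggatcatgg
FAS, chr10:88990548-88990847, plus strand: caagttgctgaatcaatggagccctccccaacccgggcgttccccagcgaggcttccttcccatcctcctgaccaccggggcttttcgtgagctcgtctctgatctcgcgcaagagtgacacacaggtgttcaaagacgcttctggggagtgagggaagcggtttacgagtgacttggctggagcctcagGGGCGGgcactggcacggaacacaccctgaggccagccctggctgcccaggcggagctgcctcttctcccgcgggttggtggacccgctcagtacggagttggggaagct
CASP8, chr2:201233213-201233512, plus strand: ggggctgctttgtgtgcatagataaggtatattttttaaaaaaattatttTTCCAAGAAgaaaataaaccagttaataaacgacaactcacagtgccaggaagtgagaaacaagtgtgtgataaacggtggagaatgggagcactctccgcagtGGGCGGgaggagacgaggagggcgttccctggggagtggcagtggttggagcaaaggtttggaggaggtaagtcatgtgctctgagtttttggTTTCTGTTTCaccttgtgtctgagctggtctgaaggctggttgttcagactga
The TNFSF10 window held 1 match to the interferon element core and 1 to the TATA box, which begins 31 bases before the start. The FAS window held 1 match to the GC box. The CASP8 window held 1 match each to the GC box, the STAT palindrome and the interferon element core. Of 35116 promoters of the same length, 3.57% held the interferon element core, 7.66% the STAT palindrome, 11.5% the TATA box, 34.6% the CCAAT box and 45.0% the GC box. CG dinucleotides numbered 3 in the TNFSF10 window, 18 in the FAS window and 6 in the CASP8 window, against a median of 14. These matches describe the letters and not the binding of any factor, which was not measured.

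**Figure D1:**
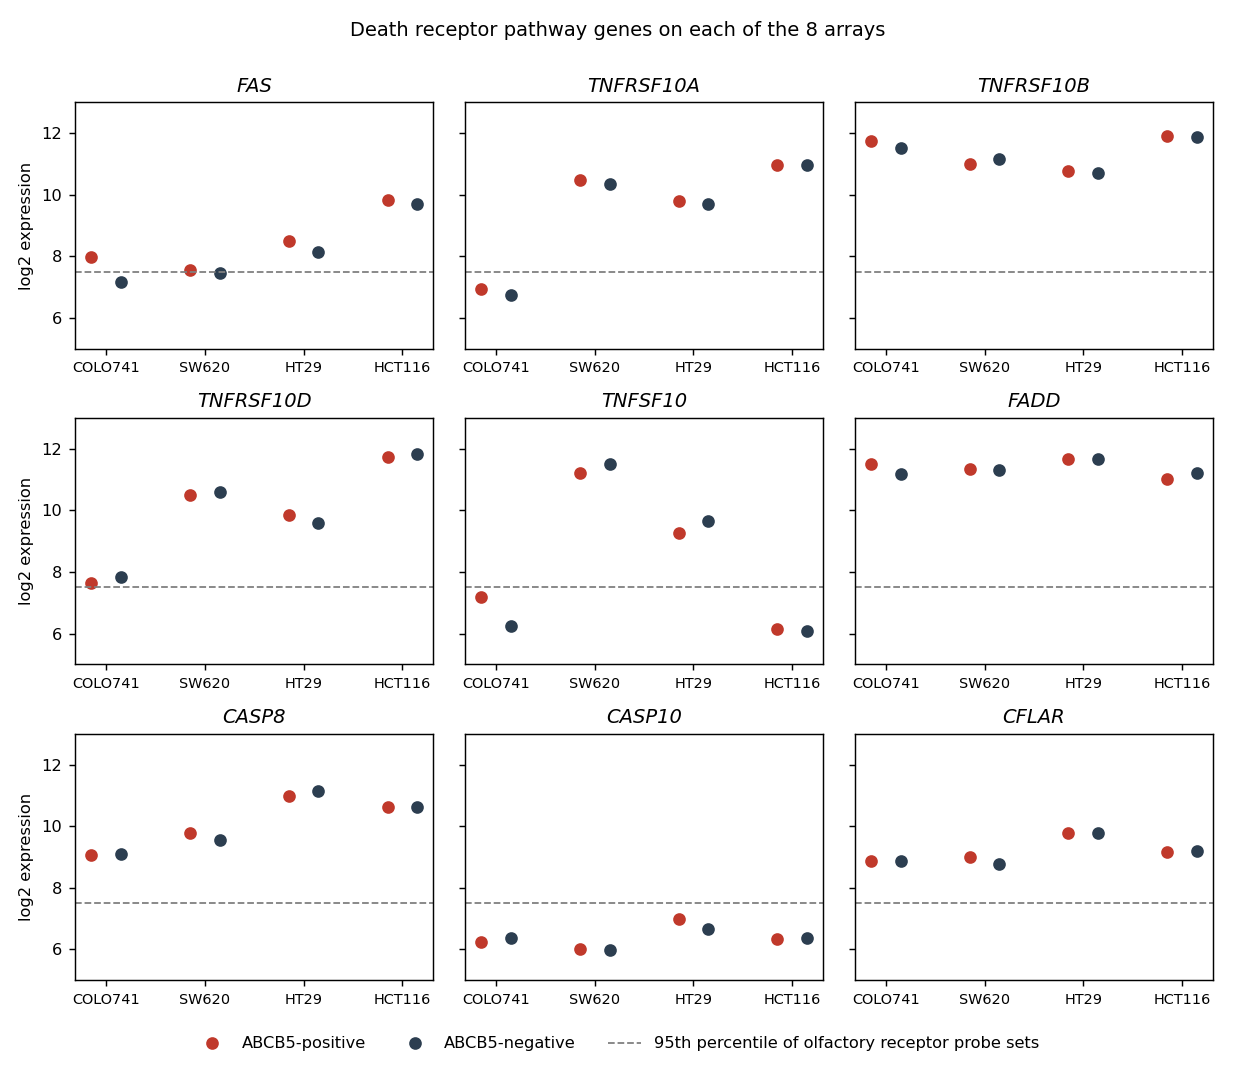
Log2 expression of the 9 measured death receptor pathway genes on each of the 8 arrays, with 1 point per array, ABCB5-positive left of ABCB5-negative in each line, and the 95th percentile of olfactory receptor probe sets (7.499) as a dashed line. The 2 TNFRSF10A points of COLO741 (6.93 and 6.75) lie far below those of the other lines, TNFSF10 spans 6.09 to 11.53, and all CASP10 points lie below the dashed line.

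The levels of the receptors depended on the line. FAS is the receptor of FAS ligand. FAS measured 7.98 in COLO741, 8.48 in HT29, 7.57 in SW620 and 9.83 in HCT116 on the arrays labelled positive, and 7.17 in COLO741, 8.15 in HT29, 7.44 in SW620 and 9.71 in HCT116 on those labelled negative. Both HCT116 arrays were the highest, and 1 array each of COLO741 and SW620 lay under the background edge of 7.499. HCT116 was 4.81-fold above SW620 (SW620 minus HCT116 -2.27, limma adjusted p = 1.42e-04) and 2.74-fold above HT29 (HT29 minus HCT116 -1.45, limma adjusted p = 9.42e-04). SW620 was lower than HT29 (SW620 minus HT29 -0.81, limma adjusted p = 0.0108), a call that was lost without the SW620 array labelled positive or without either HT29 array (limma adjusted p = 0.0819, 0.056 and 0.0601). COLO741 and SW620, neighbours at the low end, did not differ past the threshold (0.07, limma adjusted p = 0.779 over 6 pairs of lines, tests added after the data were seen).

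TNFRSF10A encodes TRAIL receptor 1, or DR4, which has a death domain. On the arrays labelled positive TNFRSF10A measured 6.93 in COLO741, 9.80 in HT29, 10.47 in SW620 and 10.97 in HCT116, and on those labelled negative 6.75 in COLO741, 9.71 in HT29, 10.36 in SW620 and 10.97 in HCT116. Both COLO741 arrays lay under the background edge, far from the other 6. COLO741, at a mean of 6.84, was at least 7.37-fold lower than the other 3 lines, at a mean of 10.38 ± 0.61 (SD, n = 3 lines), and the measured difference was -3.54 with a 95% interval of -3.72 to -3.37 (limma adjusted p = 3.82e-07). HCT116, SW620 and HT29 stood in that order, and all 3 pairs passed the threshold, with SW620 minus HT29 at 0.66 (limma adjusted p = 0.00144).

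TNFRSF10B encodes TRAIL receptor 2, or DR5, the other TRAIL receptor with a death domain. TNFRSF10B measured 11.76 in COLO741, 10.76 in HT29, 11.002 in SW620 and 11.92 in HCT116 on the arrays labelled positive, and 11.51 in COLO741, 10.71 in HT29, 11.17 in SW620 and 11.89 in HCT116 on those labelled negative. Every array was bright. HCT116 was 2.25-fold above HT29 (HT29 minus HCT116 -1.17, limma adjusted p = 4.08e-04). COLO741 was higher than the mean of the other lines by 0.39, 1.31-fold, with a 95% interval of 0.16 to 0.62 (limma adjusted p = 0.0135). Without the COLO741 array labelled positive that difference was 0.25 (limma adjusted p = 0.116), and the call was lost. COLO741, with TNFRSF10A at background, thus had a TNFRSF10B level next to that of HCT116, from which it did not differ past the threshold (COLO741 minus HCT116 -0.27, limma adjusted p = 0.103 over 6 pairs).

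TNFRSF10D encodes the decoy receptor DcR2, whose death domain is cut short. On the arrays labelled positive TNFRSF10D measured 7.65 in COLO741, 9.86 in HT29, 10.50 in SW620 and 11.75 in HCT116, and on those labelled negative 7.84 in COLO741, 9.61 in HT29, 10.60 in SW620 and 11.84 in HCT116. COLO741 lay just above the background edge and was 7.73-fold lower than the other 3 lines (-2.95, 95% interval -3.20 to -2.70, limma adjusted p = 2.75e-06). HCT116 was 4.17-fold above HT29 (HT29 minus HCT116 -2.06, limma adjusted p = 5.42e-05). The order of the lines, HCT116 over SW620 over HT29 over COLO741, was the same as for TNFRSF10A, its neighbour among the protein-coding genes of chromosome 8, and every neighbouring pair of lines passed the threshold for both genes. The third gene of that row measured here, TNFRSF10B, had COLO741 in second place. FAS and TNFRSF10B are known targets of p53, and the 8 measured genes of the p53 response list averaged 10.62 and 10.58 in HCT116, against 9.63 to 10.05 in the other lines. Genes of that p53 response list were not alike, since HT29 minus HCT116 was -1.74 for CDKN1A and 1.09 for PLK2. The part of that response in the receptor levels was not tested.

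The ligand had the widest range of all members. TNFSF10 encodes TRAIL. TNFSF10 measured 7.18 in COLO741, 9.28 in HT29, 11.22 in SW620 and 6.14 in HCT116 on the arrays labelled positive, and 6.23 in COLO741, 9.65 in HT29, 11.53 in SW620 and 6.09 in HCT116 on those labelled negative. SW620 and HT29 were bright, and all 4 arrays of COLO741 and HCT116 lay under the background edge. SW620 was at least 14.7-fold higher than HCT116, with measured means of 11.38 and 6.11 (SW620 minus HCT116 5.26, 95% interval 4.53 to 5.99, limma adjusted p = 4.32e-05). HT29 was at least 3.90-fold higher than HCT116 (3.35, limma adjusted p = 2.83e-04), and SW620 was 3.77-fold above HT29 (1.91, limma adjusted p = 0.00310). HCT116, with the highest measured FAS, TNFRSF10A, TNFRSF10B and TNFRSF10D levels of the 4 lines, had the lowest measured level of the ligand. COLO741, lowest in TNFRSF10A and TNFRSF10D, had the ligand at background as HCT116 did. TNFSF10 is known as an interferon-inducible gene, and the 19 measured interferon response genes averaged 8.30, 7.98, 8.06 and 7.61 on the positive arrays of COLO741, HT29, SW620 and HCT116 and 8.03, 7.67, 7.78 and 7.53 on their negative arrays. COLO741 thus had the highest mean of the interferon list in either population and a TNFSF10 signal at background. The list did not move as one there. Against the other 3 lines IFI44 (2.85) and PSMB8 (1.92) were higher in COLO741, and IRF1 (-0.98) and MX2 (-0.92) lower. No test was made of the relation between the list and TNFSF10.

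FADD, the adaptor, varied least among the members above background. On the arrays labelled positive FADD measured 11.50 in COLO741, 11.68 in HT29, 11.34 in SW620 and 11.03 in HCT116, and on those labelled negative 11.19 in COLO741, 11.67 in HT29, 11.33 in SW620 and 11.20 in HCT116. HT29 was 1.47-fold above HCT116 (HT29 minus HCT116 0.56, limma adjusted p = 0.0131), and no pair of neighbouring lines passed the threshold. The call over the 4 lines (limma adjusted p = 0.0331) was lost without either SW620 array, without either HT29 array and without the HCT116 array labelled positive, at limma adjusted p = 0.0628 to 0.162. The HT29 minus HCT116 call was lost without either HT29 array or the HCT116 array labelled positive, at limma adjusted p = 0.0655 to 0.108.

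CASP8, CASP10 and CFLAR lie side by side on chromosome 2. All 3 measured highest in HT29, as did 25.1% of all genes, but CASP10 lay under the background edge on every array. CASP8 is the main initiator caspase of the pathway. CASP8 measured 9.08 in COLO741, 10.97 in HT29, 9.79 in SW620 and 10.62 in HCT116 on the arrays labelled positive, and 9.10 in COLO741, 11.15 in HT29, 9.55 in SW620 and 10.62 in HCT116 on those labelled negative. COLO741 was 2.57-fold lower than the other 3 lines (-1.36, 95% interval -1.58 to -1.14, limma adjusted p = 5.18e-05), and the levels of all 4 lines were apart without overlap. SW620 was 2.62-fold lower than HT29 (SW620 minus HT29 -1.39, limma adjusted p = 1.88e-04). HT29 minus HCT116 was 0.45 (limma adjusted p = 0.0218), and this call was lost without the HT29 array labelled negative or either HCT116 array, at limma adjusted p = 0.105 to 0.164.

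On the arrays labelled positive CFLAR measured 8.88 in COLO741, 9.79 in HT29, 9.002 in SW620 and 9.16 in HCT116, and on those labelled negative 8.87 in COLO741, 9.79 in HT29, 8.77 in SW620 and 9.21 in HCT116. HT29 stood above the other 3 lines, with SW620 minus HT29 at -0.90 (limma adjusted p = 6.72e-04) and HT29 minus HCT116 at 0.61 (limma adjusted p = 0.00366). COLO741 was 1.33-fold lower than the mean of the others (-0.41, limma adjusted p = 0.00577), while COLO741 and SW620 differed by 0.01 (limma adjusted p = 0.928 over 6 pairs). A second CFLAR probe set gave another pattern. It measured 8.94 in COLO741, 9.24 in HT29, 8.54 in SW620 and 8.86 in HCT116 on the arrays labelled positive, and 8.65 in COLO741, 8.69 in HT29, 8.59 in SW620 and 8.43 in HCT116 on those labelled negative. With both CFLAR probe sets averaged, COLO741 minus the other lines was -0.17 (limma adjusted p = 0.0970), and that call was lost.

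CASP10, a caspase close to caspase-8 in sequence, lay under the background edge on all 8 arrays, between 5.996 and 6.99. On the arrays labelled positive CASP10 measured 6.24 in COLO741, 6.99 in HT29, 5.999 in SW620 and 6.35 in HCT116, and on those labelled negative 6.35 in COLO741, 6.67 in HT29, 5.996 in SW620 and 6.38 in HCT116. SW620 minus HT29 was -0.83 (limma adjusted p = 0.00223), so the signal passed the test between lines even though its height was that of background, and no fold is given. The HT29 minus HCT116 difference of 0.46 (limma adjusted p = 0.0238) was lost without the HT29 array labelled positive or either HCT116 array, at limma adjusted p = 0.0865 to 0.170. Nothing about the presence of caspase-10 can be read from this signal.

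**Figure D2:**
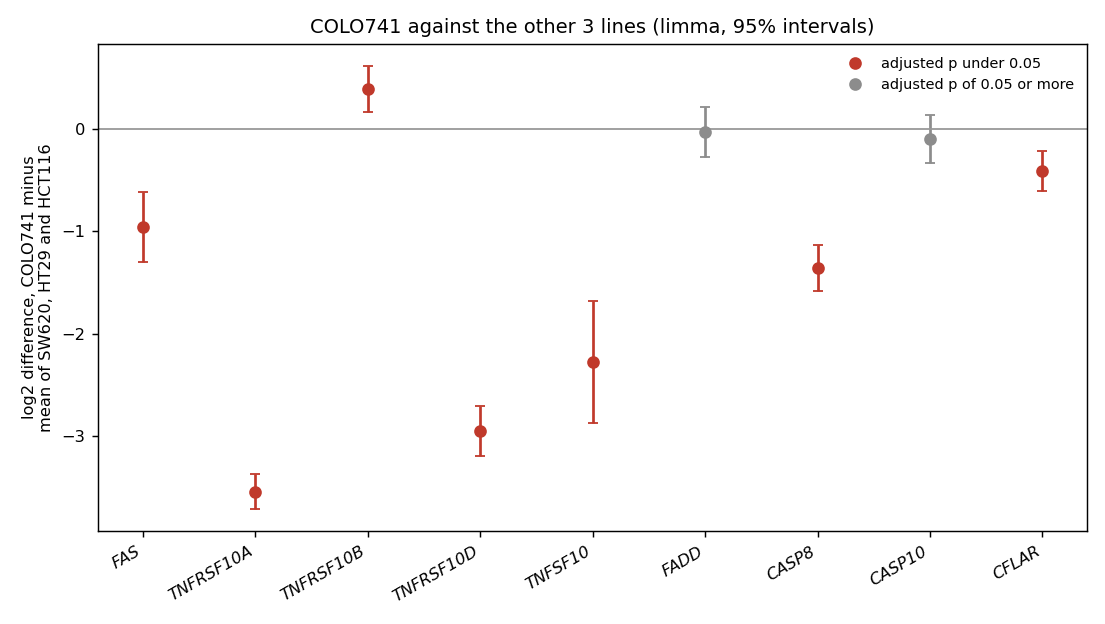
Log2 difference of each measured member, COLO741 minus the mean of SW620, HT29 and HCT116, with 95% intervals from limma over 8 arrays. TNFRSF10A (-3.54), TNFRSF10D (-2.95) and TNFSF10 (-2.28) lie farthest below 0, TNFRSF10B (0.39) lies above it, and the intervals of FADD and CASP10 cross it.

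The comparison of COLO741 with the other 3 lines set the line with melanocyte markers against those with higher colon markers. Of the 9 members 7 passed, where 49.7% of all genes tested did. Of these 6 were lower, TNFRSF10A, TNFRSF10D, TNFSF10, CASP8, FAS and CFLAR, against 26.0% of all genes, and 3 of them, TNFRSF10A, TNFRSF10D and TNFSF10, were lower by at least 4-fold as measured, against 2.03%. Further, 1 was higher, TNFRSF10B, against 23.7%. The median difference was -0.96 over the members and -0.04 over all genes. FAS in COLO741 was 1.94-fold lower than the mean of the others as measured (-0.96, 95% interval -1.30 to -0.61, limma adjusted p = 0.00164). SW620, at a mean FAS level of 7.50, did not lie above COLO741, at 7.58, and the COLO741 array labelled negative was under the background edge. Leaving out 1 array moved the FAS difference between -1.26 and -0.65. For TNFSF10 the difference of -2.28 (limma adjusted p = 3.98e-04) is a mean over unlike lines, since HCT116 lay below COLO741 by 0.59 (limma adjusted p = 0.167 over 6 pairs). FADD (-0.03, 95% interval -0.28 to 0.21, limma adjusted p = 0.831) and CASP10 (-0.10, -0.34 to 0.14, limma adjusted p = 0.465) did not pass.

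Among the other 3 lines, 7 members passed between SW620 and HT29, 6 between SW620 and HCT116 and 9 between HT29 and HCT116, where 39.9%, 38.9% and 39.0% of all genes did. Over all 4 lines together 9 members passed the limma F test, against 67.2% of all genes. HT29 was above HCT116 in 5 members, against 18.4% of all genes, namely TNFSF10, FADD, CASP8, CASP10 and CFLAR, and below it in 4, against 20.6%, namely FAS, TNFRSF10A, TNFRSF10B and TNFRSF10D. FAS and the 3 TRAIL receptors among the members were thus higher in HCT116, and TNFSF10 and CFLAR higher in HT29. The calls for FADD, CASP8 and CASP10 were each lost without single arrays, as given above, CASP10 was at background, and the number of members past the threshold ran from 6 to 9 when 1 array was left out. SW620 was above HCT116 in TNFSF10 alone (19.1% of all genes) and below it in 5 members (19.8%), namely FAS, TNFRSF10A, TNFRSF10B, TNFRSF10D and CASP8. SW620 was above HT29 in TNFSF10, TNFRSF10A and TNFRSF10D (21.1% of all genes) and below it in FAS, CASP8, CASP10 and CFLAR (18.8%), while TNFRSF10B (0.35, limma adjusted p = 0.0515) and FADD (-0.34, limma adjusted p = 0.0739) fell short. TNFRSF10B was close to the threshold, since it passed over the 6 pairs of lines (limma adjusted p = 0.0481), passed in 5 of 13 alternatives and ran from 0.21 to 0.49 in them. HT29 and HCT116 each held the highest level of 4 members and SW620 that of 1, where 25.1%, 28.3% and 21.6% of all genes were highest in them. CASP10, at background, was among those of HT29. COLO741 held the highest level of none and the lowest of 4, against 30.3% of all genes that were lowest in it.

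**Figure D3:**
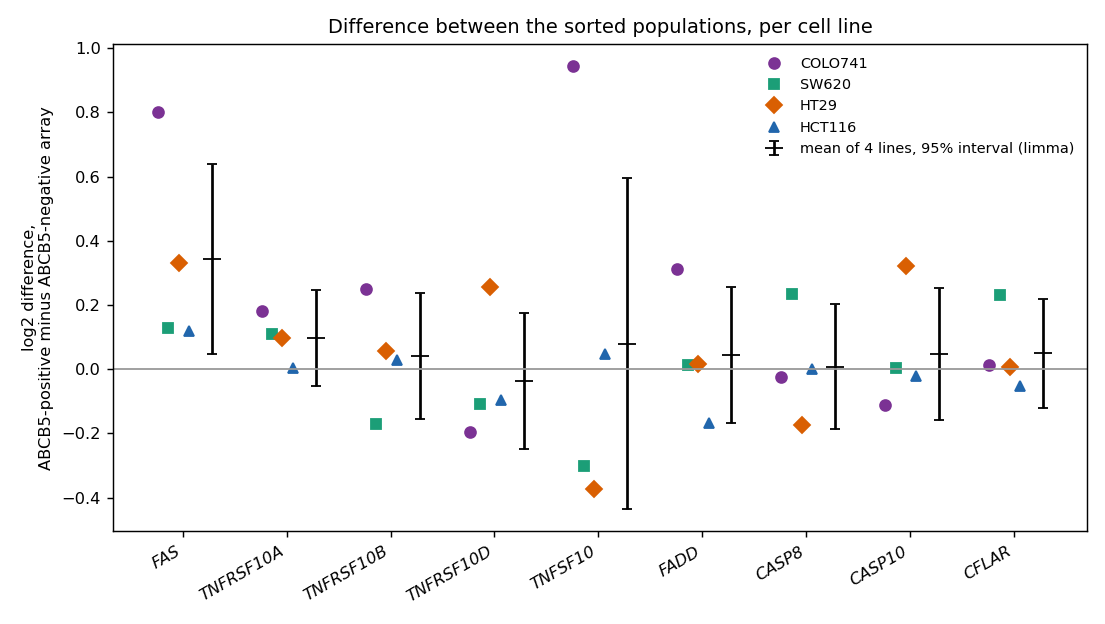
Log2 difference of each measured member, array labelled ABCB5-positive minus array labelled ABCB5-negative, with 1 symbol per cell line and the mean of the 4 lines with its 95% interval from limma. The 4 FAS symbols lie between 0.12 and 0.80, all above 0, and the TNFSF10 symbols run from -0.37 in HT29 to 0.94 in COLO741.

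The comparison of the sorted populations asked whether expression of the pathway goes with the ABCB5 label. With limma, with the line as a block, 0 of the 9 members passed, where 0.00% of all genes did, and 1 member, FAS, had an unadjusted p under 0.05, against 4.40% of all genes. The members' differences had a median of 0.05, against -0.00 over all genes. FAS was higher on the array labelled positive in 4 of 4 lines, as were 6.38% of all genes, by 0.80 in COLO741, 0.33 in HT29, 0.13 in SW620 and 0.12 in HCT116. Its mean difference was 0.34 ± 0.32 (SD, n = 4), or 1.27-fold, with a 95% interval of 0.05 to 0.64 (limma adjusted p = 0.898). The exact permutation test that flips the signs of the 4 line differences, two-sided, gave FAS its smallest possible p of 1 in 8. Any gene with 1 sign in all 4 lines gets that p, as TNFRSF10A did, and 13.4% of all genes had such a sign. Without COLO741, where the ABCB5 transcript ran opposite to the labels, the FAS mean was 0.19 ± 0.12 (SD, n = 3). The arrays labelled negative of COLO741, at 7.17, and of SW620, at 7.44, lay under the background edge.

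The TRAIL receptors measured close to 0. TNFRSF10A was also higher in 4 of 4 lines, by 0.00 to 0.18, with a mean of 0.10 ± 0.07 (SD, n = 4), a 95% interval of -0.05 to 0.25 and a limma adjusted p of 0.898. TNFRSF10B differed by 0.04 ± 0.17 (SD, n = 4), with 0.25 in COLO741 and -0.17 in SW620, and TNFRSF10D by -0.04 ± 0.20 (SD, n = 4), with 0.26 in HT29 and -0.20 in COLO741. Their 95% intervals, -0.15 to 0.24 and -0.25 to 0.18, leave room for differences of up to about those sizes in either direction. Without COLO741 the mean of TNFRSF10B was -0.03 and that of TNFRSF10D 0.02, so the sign of either turned.

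The TNFSF10 difference was 0.94 in COLO741, -0.37 in HT29, -0.30 in SW620 and 0.05 in HCT116. In the lines where the ligand was bright, SW620 and HT29, it was lower on the array labelled positive, and in COLO741, where it was higher, both arrays lay at background. The mean was 0.08 ± 0.60 (SD, n = 4), with a 95% interval of -0.44 to 0.59 (limma adjusted p = 0.956), and without COLO741 it was -0.21. The interferon response genes averaged higher on the array labelled positive in every line, by 0.28 in COLO741, 0.31 in HT29, 0.29 in SW620 and 0.09 in HCT116. Of the 18 tested interferon response genes 0 passed, 16 were measured higher and 8 had an unadjusted p under 0.05, against 4.40% of all genes. The median difference of the 18 was 0.28, against -0.0047 over all genes. In SW620 and HT29 the TNFSF10 difference thus had the opposite sign to that of this list. Their part in the values of FAS and TNFSF10 was not tested.

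**Figure D4:**
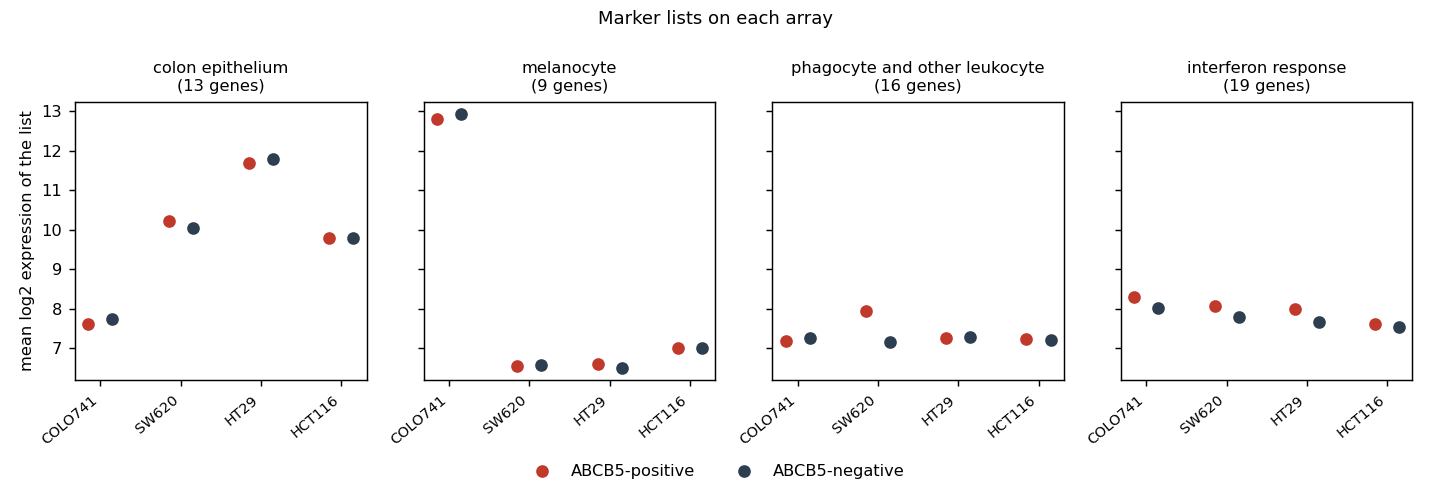
Mean log2 expression of 4 gene lists on each of the 8 arrays, with 1 point per array and ABCB5-positive left of ABCB5-negative in each line. Melanocyte markers are high only on the 2 COLO741 arrays (12.80 and 12.93), the leukocyte list stands out on the SW620 array labelled positive (7.95), and the interferon list is higher on the positive array of each line.

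The adaptor, the caspases and the inhibitor showed no steady sign. FADD differed by 0.04 ± 0.20 (SD, n = 4), from 0.31 in COLO741 to -0.17 in HCT116, and without COLO741 by -0.05. CASP8 differed by 0.01 ± 0.17 (SD, n = 4), with 0.23 in SW620 and -0.17 in HT29, and CASP10 by 0.05 ± 0.19 (SD, n = 4), all of it at background and with 0.32 in HT29. CFLAR differed by 0.05 ± 0.12 (SD, n = 4), with 0.23 in SW620 and between -0.05 and 0.01 in the other lines. The 2 largest of these SW620 values, those of CASP8 and CFLAR, stood on the array with the raised leukocyte markers, which were 0.80 higher there than on its partner. Without SW620 the mean of CASP8 was -0.07 and that of CFLAR -0.01, and the part of leukocyte RNA in them was not tested. The 95% intervals of FADD, CASP8, CASP10 and CFLAR all lay within -0.19 to 0.26, and their limma adjusted p-values ran from 0.932 to 0.986.

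The second CFLAR probe set gave 0.29 in COLO741, 0.55 in HT29, -0.05 in SW620 and 0.43 in HCT116, a mean of 0.30 ± 0.26 (SD, n = 4) with p = 0.25 by the exact permutation of signs, two-sided. With both CFLAR probe sets averaged the difference was 0.18, with an unadjusted limma p of 0.0280 and an adjusted p of 0.897. Whether the probe sets of CFLAR differ from each other was not tested.

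Whether the population difference of 1 line departed from that of the other 3 was tested with limma on the 4 line differences, a test added after the data were seen. The line tested gives 1 difference with no replicate, so that the spread comes from the other 3 lines and is assumed to hold for it. Over all genes and lines 15 of 67640 tests passed, and none of them was of a member. The nearest was TNFSF10 in COLO741, whose difference exceeded the mean of the other lines, -0.21, by 1.15 (limma adjusted p = 0.325) with both COLO741 arrays under the background edge, followed by FAS in COLO741, which exceeded theirs by 0.61 (limma adjusted p = 0.533).

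Other genes of the pathway were taken from a list of 65 that holds further ligands and receptors, adaptors and necroptosis genes, ubiquitin ligases and inhibitors, executioners with the mitochondrial branch, and genes of receptor traffic and glycosylation. Of these 58 were tested. Between the sorted populations 0 of the 58 passed with limma, and 3 had an unadjusted p under 0.05, where 4.40% of all genes did. Of the 58, 31 were measured higher, and the median difference was 0.02, against -0.0047 over all genes. PTPN13, a phosphatase known to bind the tail of FAS and dampen its signal, differed by 1.93 in COLO741, 0.44 in HT29, 0.84 in SW620 and 0.09 in HCT116, a mean of 0.82 ± 0.80 (SD, n = 4, limma adjusted p = 0.898) that was 0.45 without COLO741. The COLO741 array labelled negative, at 6.20, was under the background edge for PTPN13. CYCS, cytochrome c, which activates caspase-9 once released from mitochondria, measured -0.25 ± 0.25 (SD, n = 4), lower in all 4 lines, and -0.13 without COLO741. BAK1, a pore-forming protein of the mitochondrial membrane, was lower in all 4 lines too, at -0.43 to -0.11, with a mean of -0.20 that was -0.13 without COLO741. Of all genes 13.4% had 1 sign in all 4 lines, and the genes named here were picked for small p, which favours such a sign.

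TNFRSF12A, the receptor of the ligand TWEAK, measured 0.29 ± 0.36 (SD, n = 4), with 0.82 in COLO741 and 0.09 to 0.16 in the other lines, whose mean was 0.11. HTRA2, a mitochondrial protease that binds inhibitors of apoptosis, measured 0.15 ± 0.12 and DEDD2, a death effector domain protein, 0.13 ± 0.09 (SD, n = 4 each), and the HTRA2 mean was 0.0852 without COLO741. NGFR, the neurotrophin receptor with a death domain, measured -0.22 ± 0.26 (SD, n = 4), with a positive difference in HCT116 alone of the 4 lines, and -0.11 without SW620. The other 3 genes of smallest p lay at background on most or all arrays, namely the fucosyltransferase gene FUT3 (0.20 ± 0.25, 0.0809 without HT29, 1 array above background), the ligand gene TNFSF15 (0.11 ± 0.04, 2 arrays above) and the receptor gene EDA2R (-0.16 ± 0.19, 0 arrays above). All 10 named genes had a limma adjusted p of 0.898.

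**Figure D5:**
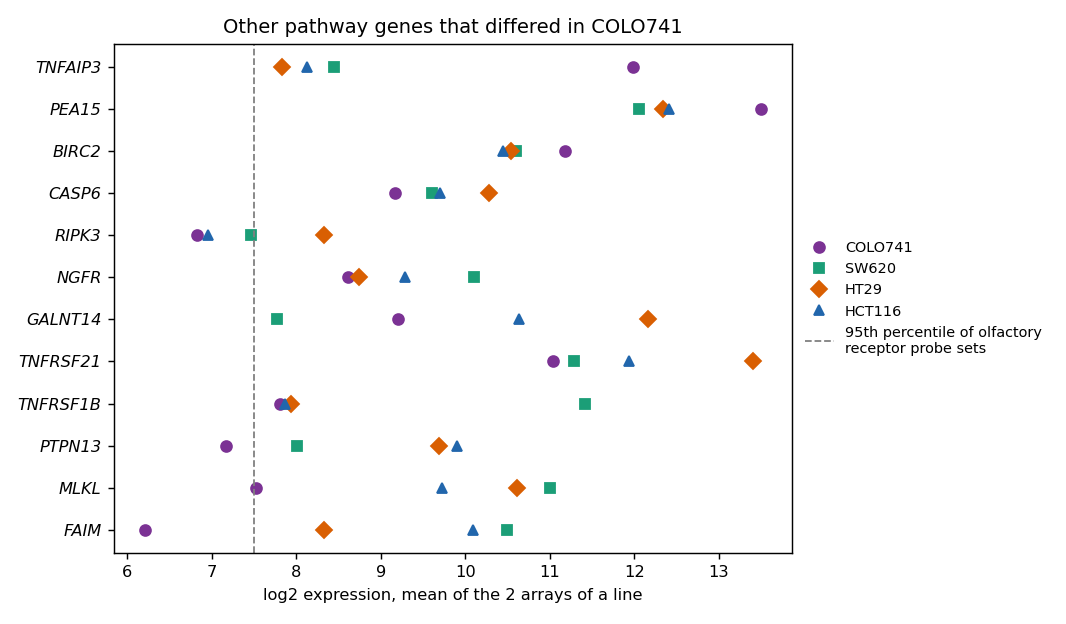
Log2 expression (mean of the 2 arrays of a line) of the 12 other pathway genes with the largest difference between COLO741 and the other 3 lines among those past the threshold, with 1 symbol per line and the 95th percentile of olfactory receptor probe sets (7.499) as a dashed line. TNFAIP3, PEA15 and BIRC2 are highest in COLO741 (11.99, 13.50 and 11.18), and FAIM is at background there (6.21).

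Between COLO741 and the other 3 lines 32 of the 58 passed, where 49.7% of all genes did. Of the 58, 12 passed as higher, against 23.7% of all genes, and 20 as lower, against 26.0%. By group, 6 of 12 ligands and receptors passed, 7 of 12 adaptors and necroptosis genes, 10 of 15 ubiquitin ligases and inhibitors, 8 of 13 executioners and mitochondrial genes, and 1 of 6 genes of receptor traffic and glycosylation. TNFAIP3, the ubiquitin-editing enzyme A20 that restrains NF-kB and death signals, was 14.5-fold higher in COLO741, at 11.81 and 12.17 against 7.76 to 8.79 elsewhere (3.86, limma adjusted p = 1.27e-05). PEA15, a death effector domain protein that can hold FADD and caspase-8 apart, was 2.35-fold higher (1.23, limma adjusted p = 3.61e-05), and BIRC2, the inhibitor of apoptosis cIAP1, 1.57-fold higher (0.65, limma adjusted p = 0.00265). The other 9 that were higher, named after their values were seen, were APAF1, BAK1, CRADD, CYCS, CYLD, EDA2R, HTRA2, TNFRSF1A and TRAF1, by 0.28 to 0.48, with EDA2R at background on all arrays. EDA2R passed in 4 of 12 alternatives, HTRA2 in 9 of 13, and BAK1 and CYCS in 12 of 13 each. For the rest no such count is given.

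On the lower side FAIM, an inhibitor of FAS-induced apoptosis, lay at background in COLO741, at 6.09 and 6.32, against 8.32 to 10.58 elsewhere (-3.43, limma adjusted p = 9.19e-07). It was at least 7.99-fold lower than in SW620, 6.05-fold lower than in HCT116 and 1.77-fold lower than in HT29. MLKL, the executioner of necroptosis, was lower (-2.93, limma adjusted p = 3.44e-04), with COLO741 at 8.22 on the array labelled positive and at 6.82, under the background edge, on the one labelled negative. PTPN13 was lower too (-2.04, limma adjusted p = 0.00212), with COLO741 at 8.13 on the array labelled positive and at 6.20, under the background edge, on the one labelled negative, so no fold is given. The PTPN13 difference was -2.77 without the COLO741 array labelled positive and -1.30 without the one labelled negative. TNFRSF1B, the second receptor of tumour necrosis factor, measured 7.80 in COLO741, against 11.41 in SW620, 7.93 in HT29 and 7.87 in HCT116, so that its difference of -1.27 from their mean lay with SW620. TNFRSF21, or death receptor 6, was 2.25-fold lower (-1.17, limma adjusted p = 0.00378), at 11.04 in COLO741 against 13.40 in HT29, 11.28 in SW620 and 11.93 in HCT116. Its difference was -1.67 without the COLO741 array labelled positive and -0.67 without the one labelled negative, and the first of these arrays, at 11.55, lay above both of SW620. GALNT14, a glycosyltransferase known to modify TRAIL receptors, was 1.98-fold lower (-0.98, limma adjusted p = 4.64e-05), although SW620 lay below COLO741 at 7.76 against 9.20. NGFR (-0.76), the executioner CASP6 (-0.70) and the necroptosis kinase gene RIPK3 (-0.76) completed the list. NGFR measured 8.61 in COLO741, against 8.74 in HT29, 10.10 in SW620 and 9.28 in HCT116. RIPK3 was above background on 3 of 8 arrays, both of HT29 and 1 of SW620.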

How the data were processed

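The authors deposited log2 expression values, 1 for each of 33297 probe sets on each array. The submitters' processing notes name Affymetrix Expression Console for this step. Its version, the summarisation and the normalization are not stated there. The log2 scale was read from the values (2.99 to 15.24), and array medians lay between 8.03 and 8.10. Of the probe sets 19460 named 1 gene in the platform annotation, whose symbols were updated through GRCh38.p14 gene identifiers (19429 matched), 1754 named several and 12083 were not listed.

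Genes were tested with limma 3.58.1 in R 4.3.3, two-sided, with Benjamini-Hochberg adjustment over all 16910 genes and a threshold of 0.05. The populations were compared with the line as a fixed block, and the lines with the population as covariate. The 3 pairs among SW620, HT29 and HCT116 were adjusted together. Both arrays of a line pair by label, and their deviations from the population means correlated at 0.93 to 0.96. The fits were tested on simulated data. Named were all members and, of the other pathway genes, the 10 of smallest p between populations and the 12 largest differences past the threshold between COLO741 and the other lines. Members, lists and tests were chosen with earlier results of these data known. The number of arrays limits the precision.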

Additional observations from a re-analysis of the deposited data

How the results depend on the processing

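Alternatives were quantile normalization between arrays, no filter, a strict filter at the 95th percentile of olfactory receptor probe sets, the mean of all probe sets of a gene, a variance trend, no replicate block, the line as a random replicate block, and leaving out each line or array. Between the sorted populations 0 genes passed with limma under each of them, while 27 genes had an unadjusted p under 0.05 with no replicate block and 775 with the random replicate block, against 744 as reported. CASP8 turned sign to -0.0105 with quantile normalization. With COLO741 and SW620 both left out, an alternative added after the values were known, TNFRSF10D measured 0.0802, TNFSF10 -0.16, FADD -0.0758, CASP8 -0.0872 and CFLAR -0.0224, each of the opposite sign. Leaving out 1 line at a time moved TNFRSF10B between -0.0281 and 0.11, TNFRSF10D between -0.13 and 0.0173, TNFSF10 between -0.21 and 0.23, FADD between -0.0458 and 0.11, CASP8 between -0.0664 and 0.0697, CASP10 between -0.0437 and 0.10 and CFLAR between -0.0107 and 0.083.

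Between COLO741 and the other lines, leaving out 1 array at a time moved FADD between -0.21 and 0.15 and CASP10 between -0.20 and 0.0085. The number of genes past the threshold, leaving out 1 array, ran from 4447 to 7462 for SW620 minus HT29 (6743 as reported), from 4049 to 7347 for SW620 minus HCT116 (6579) and from 4238 to 7263 for HT29 minus HCT116 (6601). The lowest of these counts came without an array of HT29 in the first comparison and without one of HCT116 in the others, and the causes were not tested. With the strict filter CASP10 was not tested and 8 members remained. Signals under the background edge limit CASP10 on all arrays, TNFRSF10A in COLO741 and TNFSF10 in COLO741 and HCT116.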
